A study of Mus musculus with 18 samples.

Results

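The matrix metalloproteases (MMPs), the ADAMTS proteases and the tissue inhibitors of metalloproteases (TIMPs) were followed in RNA from mouse brain tissue labelled thalamus. Members were all rows of the gene table whose symbol is Mmp, Adamts or Timp followed by its number (and a letter for Mmp1a and Mmp1b), 46 of 50559 genes: 23 MMP, 19 ADAMTS and 4 TIMP genes. Of these, 31 (11 MMP, 16 ADAMTS and 4 TIMP genes) passed a filter on low counts that 18452 genes passed in all. The other 15 are described separately at the end with their raw counts. There were 18 poly-A RNA-seq libraries, all labelled wild type, in 3 groups of 6. The control group received saline, the model group Coll IV, and the intervene group both Coll IV and remodelin. The last is a small molecule described as an inhibitor of the RNA acetyltransferase NAT10. The labels do not expand Coll IV, and give no age, sex, strain, time point or number of animals. They do not say whether the libraries of a group come from separate animals, so p-values measure only the spread between these libraries.

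MMPs are zinc proteases that cut collagens, laminins and other proteins of the extracellular matrix; most are secreted as inactive precursors, and a few (Mmp14, Mmp15, Mmp16, Mmp17, Mmp24) stay attached to the cell surface. ADAMTS proteases carry thrombospondin repeats, and several of them (Adamts1, Adamts4, Adamts5, Adamts9, Adamts15) cut the proteoglycans aggrecan, versican or brevican that fill the space around brain cells. TIMPs bind in the active site of these enzymes and block it. In injured brain the balance of the 3 groups is studied for its part in breakdown of the blood vessel wall and in remodelling of the scar.

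Libraries numbered 1 to 3 and 4 to 6 differed in markers of brain region, so every result is given by these replicate sets as well; the labels attach no meaning to the numbers. Tcf7l2, a transcription factor of thalamic neurons, was at 98.7 to 102 CPM (counts per 1000000 counts, with library sizes scaled by the trimmed mean of M values) in control replicates 1 to 3 and at 3.82 to 5.05 CPM in control replicates 4 to 6. It was at 4.80 to 10.5 CPM in model replicates 4 to 6 and at 32.8 to 48.6 CPM in intervene replicates 4 to 6. Slc17a7, which loads glutamate into synaptic vesicles of cortex and hippocampus, was at 53.5 to 557 CPM in control replicates 1 to 3 and at 1583 to 1670 CPM in control replicates 4 to 6. In the same order, model held 416 to 861 and 1091 to 1254 CPM. The intervene sets overlapped, at 278 to 698 and 512 to 1004 CPM. The edgeR test described below called this difference between sets in control only. In control and model replicates 4 to 6 the defining thalamic marker was thus low for tissue labelled thalamus, and the intervene libraries of that set held more of it. In bulk tissue, fewer cells of a type and less RNA per cell cannot be told apart. Libraries held 28481225 to 118461420 counts, and members took 0.0608% to 0.0991% of them.

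Compared per transcript length, Timp2 and Timp3 were the most abundant members. In the deposited FPKM (fragments per kilobase of transcript, scaled to the library's size), Timp2 had a median of 37.8 over the 18 libraries (26.1 to 68.1) and Timp3 a median of 12.9 (8.46 to 17.9). Mmp17 (median FPKM 9.66) and Timp4 (9.35) followed, with ranges that overlapped widely (4.003 to 18.01 and 6.23 to 14.51). Adamts4 had the highest median FPKM of the ADAMTS genes, 2.97. Mmp15 (median FPKM 2.47), Mmp14 (2.27) and Mmp24 (1.65), all membrane-type enzymes, came next. These 8 were the members with a median FPKM of at least 1. Adamts1 had a median FPKM of 0.704 and Timp1 of 0.574, and the secreted gelatinases Mmp2 and Mmp9 had 0.344 and 0.189. Adamts19 was the lowest member that passed, with a median FPKM of 0.0243.

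**Figure D1:**
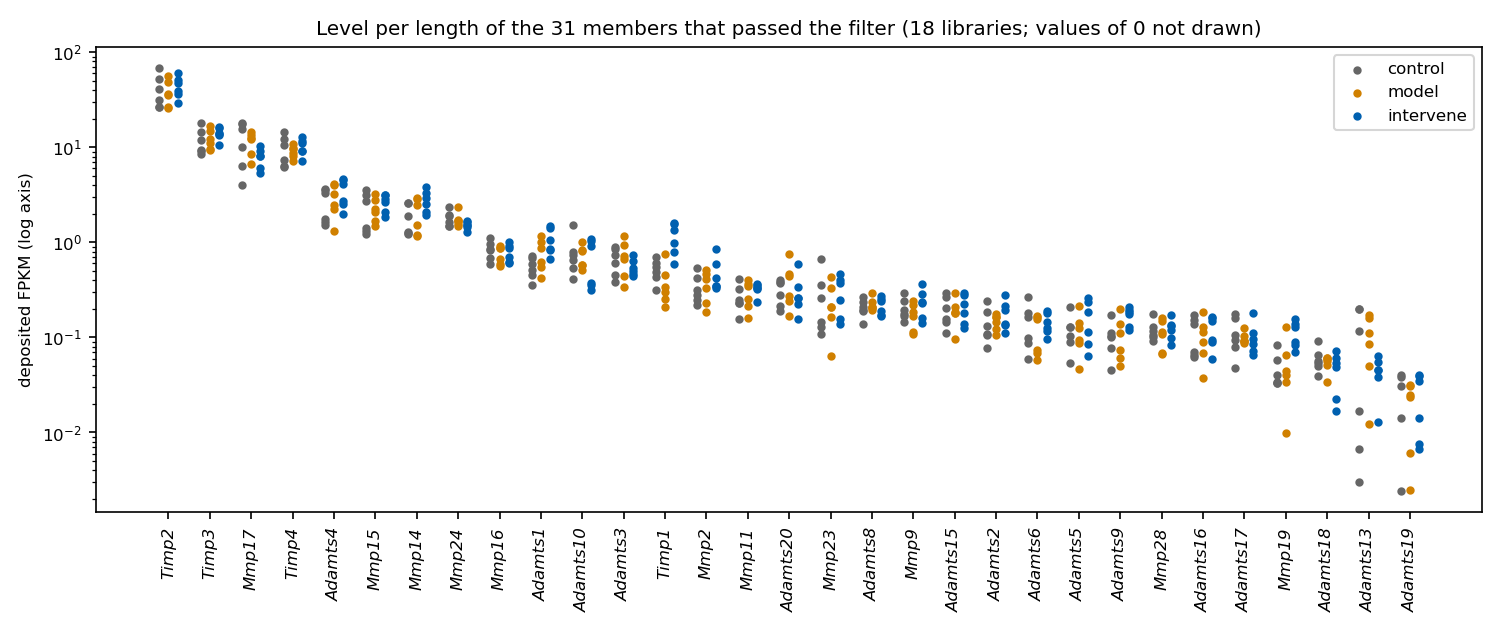
Deposited FPKM (log axis) of the 31 members that passed the filter, 1 point per library, coloured by group and ordered by median. Timp2, Timp3, Mmp17 and Timp4 lie highest, and Adamts19 lowest with a median of 0.0243.

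In the comparisons of whole groups, none of the 31 members passed the test (edgeR's quasi-likelihood test, Benjamini-Hochberg adjusted p under 0.05 over 18452 genes). The same test called 0% of all genes in model against control, 0% in intervene against model and 0% in intervene against control. At an unadjusted p under 0.05, 0 members differed in model against control, where 1.68% of all genes did. In intervene against model 3 members were higher at that level (Timp1, Mmp19, Adamts9) beside 2.88% of all genes. In intervene against control 5 were higher (Timp1, Adamts1, Adamts9, Mmp14, Mmp19) beside 8.41% of all genes. DESeq2, run as an alternative, called 0, 1 and 2 members in the 3 comparisons, and limma on FPKM called 0 in each. With the replicate set as a covariate, edgeR called Mmp14 in intervene against control and no member in the other comparisons. The shares of all genes called in these alternative fits are not given here, so their calls are not read as particular to the members. The median log2 fold change of the members was 0.21 in intervene against model and 0.14 in intervene against control, beside 0.00 for all genes tested in both.

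Within replicates 1 to 3, 0 members and 0% of all genes were called in each of the 3 comparisons by edgeR, and DESeq2 and limma called 0 members. At an unadjusted p under 0.05 the members were 2 in model against control (5.83% of all genes), 1 in intervene against model (3.79%) and 6 in intervene against control (8.56%). Within replicates 4 to 6, model against control again gave 0 calls among members and 0% among all genes, with 2 members at an unadjusted p under 0.05 beside 10.2% of all genes. Intervene against model gave 5 members higher and 0 lower, which is 16.1% of the members beside 5.71% of all genes (3.66% higher, 2.05% lower). Intervene against control gave 8 higher and 2 lower, 32.3% of the members beside 25.9% of all genes (14.7% higher, 11.2% lower). Without model replicate 4 or 5 the first count fell to 1 (Mmp14), without intervene replicate 5 to 2 and without model replicate 6 or intervene replicate 6 to 3. Without control replicate 4 or 5 the second fell to 6. These last comparisons share the intervene libraries 4 to 6. Shares of all genes called in fits that left out 1 library are not given here. A change between sets was tested as an interaction. It called 0 members for model against control (0% of all genes), 0 for intervene against model (0.352% of all genes) and 3 for intervene against control (17.9% of all genes). Without intervene replicate 2 the interaction called Adamts1 for intervene against model, and without control replicate 3 it called 6 members for intervene against control. The calls in replicates 4 to 6 of intervene against model were thus not shown to differ from the values in replicates 1 to 3.

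**Figure D2:**
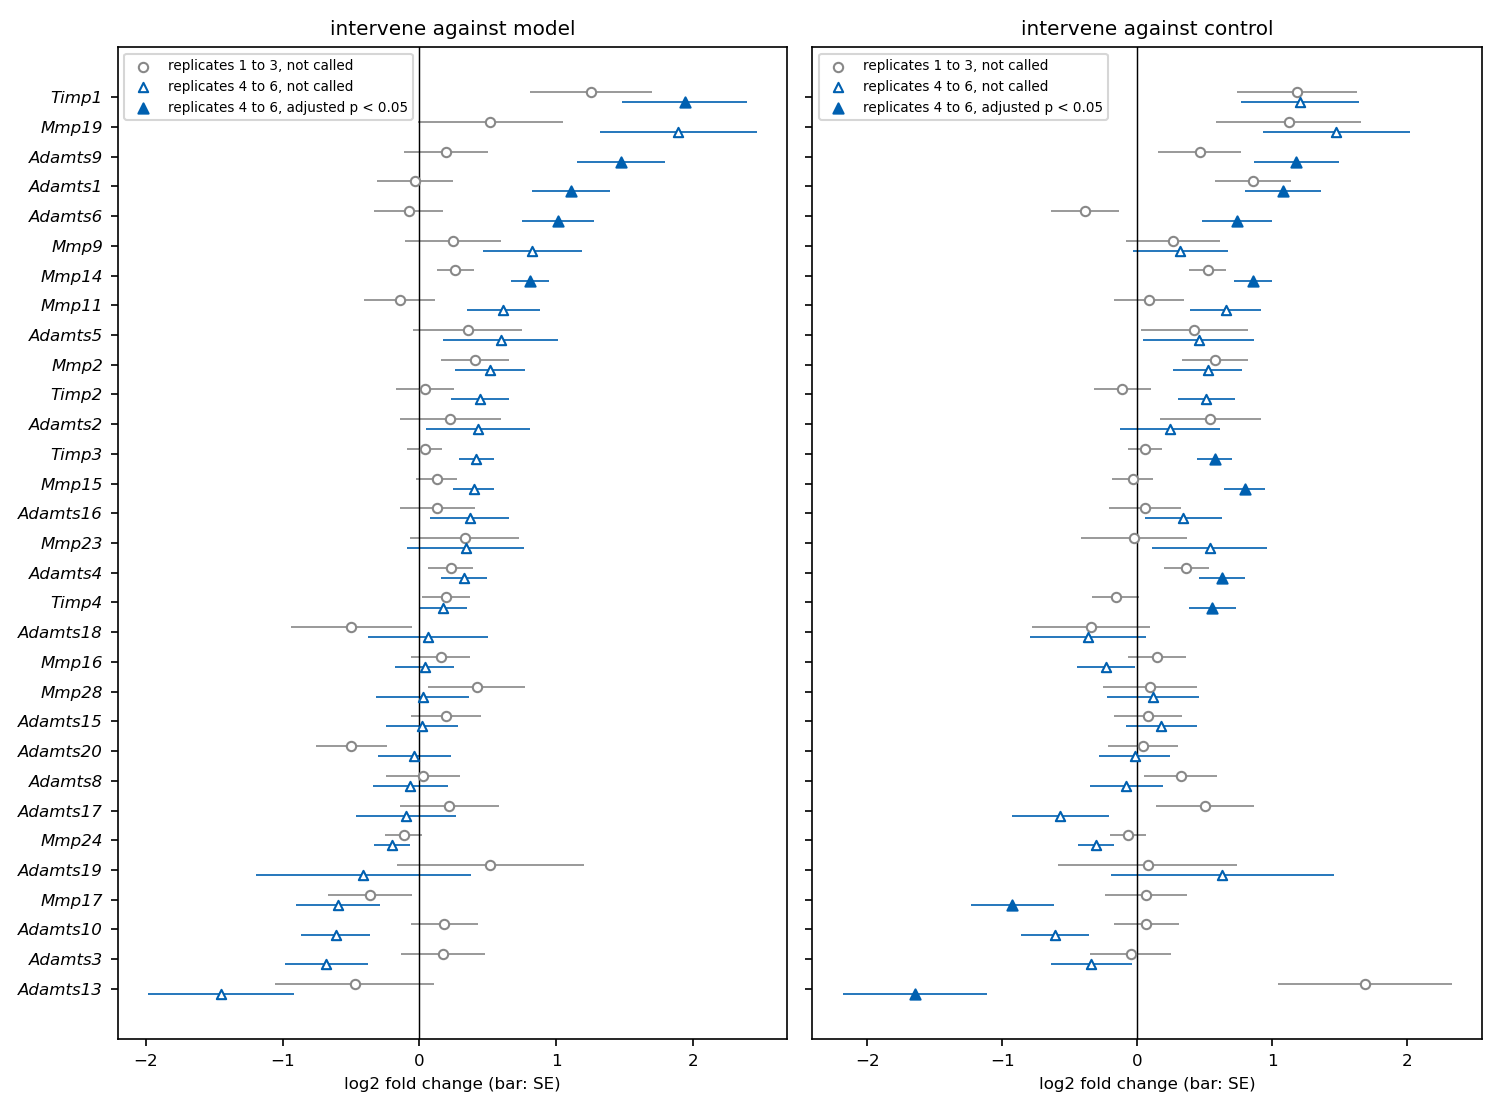
Log2 fold change with its standard error for the 31 members, intervene against model (left) and intervene against control (right), within replicates 1 to 3 (circles) and 4 to 6 (triangles; filled where the adjusted p was under 0.05). Filled triangles occur only in replicates 4 to 6: 5 in the left panel and 10 in the right one.

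Timp1 encodes a secreted inhibitor that is induced by cytokines and injury in astrocytes and other cells. Its level was 0.541, 0.814 and 1.12 CPM in control replicates 1 to 3 and 1.22, 0.972 and 0.797 CPM in control replicates 4 to 6. The model libraries held 1.29, 0.464 and 0.533 CPM in replicates 1 to 3 and 0.614, 0.355 and 0.840 CPM in replicates 4 to 6. The intervene libraries held 1.11, 1.68 and 2.67 CPM in replicates 1 to 3 and 2.77, 1.48 and 2.67 CPM in replicates 4 to 6. In replicates 4 to 6 every intervene library lay above every control and model library, and in replicates 1 to 3 the intervene and model libraries overlapped. Timp1 was 3.83-fold higher in intervene than in model replicates 4 to 6 (log2 fold change 1.94 ± 0.46 SE, edgeR adjusted p = 0.0231). The log2 fold change was 1.25 ± 0.45 in replicates 1 to 3 (adjusted p = 1.00), and the difference between the sets was 0.68 ± 0.64 (adjusted p = 0.624). Over whole groups it was 1.59 ± 0.32 in intervene against model (edgeR adjusted p = 0.988; DESeq2 adjusted p = 0.0205). Intervene against control gave 1.19 ± 0.31 (edgeR adjusted p = 0.326; DESeq2 adjusted p = 0.0477), and model against control -0.40 ± 0.32 (adjusted p = 1.00). The call in replicates 4 to 6 was lost without model replicate 4 or 5 (adjusted p = 0.0915 and 0.0876) and without intervene replicate 4 or 6 (0.0522 and 0.0602). Timp1 lies inside Syn1, which encodes a synaptic vesicle protein, and the sources used here do not give whether counting used the strand. Syn1 was at 328 to 848 CPM, far above Timp1, and its log2 fold change in intervene against model replicates 4 to 6 was 0.13 ± 0.16 (adjusted p = 0.669).

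The 3 other TIMPs were called between the replicate sets of control. Timp2 and Timp3 were also called between those of model, and no TIMP between those of intervene. The Timp2 call in model was kept in 2 of 6 fits that left out 1 library (edgeR adjusted p up to 0.147). It was also lost without a filter (0.122), with library totals (0.0674) and by limma on FPKM (0.0660). Timp2, which also takes part in activating Mmp2 on the cell surface, ranged from 188 to 463 CPM in control (median 266), from 194 to 409 in model (median 251) and from 239 to 423 in intervene (median 315). Timp3, which binds to the matrix, ranged from 78.2 to 157 CPM in control (median 102), from 89.7 to 156 in model (median 105) and from 110 to 146 in intervene (median 134). Timp4, which is found in brain and heart, had medians of 53.9, 53.9 and 63.9 CPM in the 3 groups. The groups overlapped for all 3 of these genes. Within replicates 4 to 6, Timp3 held 85.4, 78.2 and 88.7 CPM in control and 130, 136 and 110 CPM in intervene, with no overlap. It was higher there by 0.58 ± 0.13 on the log2 scale (edgeR adjusted p = 0.00406), and Timp4 by 0.56 ± 0.17 (adjusted p = 0.0270). The Timp4 call was lost without control replicate 4 or 5 or intervene replicate 4 or 6 (adjusted p up to 0.118), with library totals (0.0542) and by limma on FPKM (0.0826). In control replicates, however, the same genes were lower in 4 to 6 than in 1 to 3, Timp3 by -0.68 ± 0.13 (adjusted p = 0.000726) and Timp4 by -0.87 (adjusted p = 0.00119). Both comparisons use control replicates 4 to 6. Timp3 lies inside Syn3 and Timp4 inside Syn2, with the same limit on strand. Syn3 fell in intervene against control replicates 4 to 6 (log2 -0.81 ± 0.23, adjusted p = 0.0155), as did Syn2 (-0.42 ± 0.13, adjusted p = 0.0268), so host gene and TIMP moved in opposite directions there.

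Adamts1, a versican- and aggrecan-cutting protease that is also an inhibitor of vessel growth, was at 4.27, 6.64 and 5.18 CPM in control replicates 1 to 3 and at 6.54, 5.73 and 3.59 CPM in control replicates 4 to 6. The model libraries held 10.9, 10.2 and 8.53 CPM in replicates 1 to 3 and 5.44, 3.97 and 6.23 CPM in replicates 4 to 6. The intervene libraries held 6.85, 14.0 and 8.08 CPM in replicates 1 to 3 and 10.1, 14.4 and 9.17 CPM in replicates 4 to 6. All 6 intervene libraries lay above all 6 control libraries, while the model libraries lay above control in replicates 1 to 3 only. Adamts1 rose 2.15-fold in intervene against model replicates 4 to 6 (log2 1.11 ± 0.28, edgeR adjusted p = 0.0323) and 2.12-fold against control (1.08 ± 0.28, adjusted p = 0.0105). In replicates 1 to 3 intervene against model was -0.03 ± 0.28 (adjusted p = 1.00), and the interaction was 1.14 ± 0.40 (adjusted p = 0.162). Over whole groups the log2 fold change was 0.97 ± 0.25 in intervene against control (edgeR adjusted p = 0.310; DESeq2 adjusted p = 0.0397). It was 0.47 ± 0.25 in intervene against model (adjusted p = 0.988) and 0.50 ± 0.25 in model against control (adjusted p = 1.00). The 2 sets of control libraries did not differ detectably in Adamts1 (-0.01 ± 0.28, adjusted p = 0.983), and model replicates 4 to 6 were lower than 1 to 3 (-0.92 ± 0.28, adjusted p = 0.0330). The call against model was lost without model replicate 4, 5 or 6 (adjusted p = 0.105, 0.116 and 0.0503) or without intervene replicate 5 (0.148), which also ended the call against control (0.0615). With library totals in place of scaled sizes it was 0.0531, and by limma on FPKM 0.0646. The lower level in model replicates 4 to 6 than 1 to 3 lost its call without model replicate 1, 2, 4 or 5 (adjusted p up to 0.113).

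Adamts9, the relative of a worm protease that guides cell migration, was at 0.921, 1.04 and 1.37 CPM in model replicates 4 to 6 and at 3.45, 3.36 and 2.39 CPM in intervene replicates 4 to 6. Control replicates 4 to 6 held 1.35, 1.82 and 0.830 CPM. The intervene libraries did not overlap the other groups in that set. Adamts9 rose 2.77-fold against model (log2 1.47 ± 0.32, edgeR adjusted p = 0.0173) and by 1.18 ± 0.32 against control (adjusted p = 0.0119). In replicates 1 to 3, where control held 1.93, 2.90 and 1.87, model 1.90, 3.71 and 2.46 and intervene 2.43, 3.20 and 3.57 CPM, the groups overlapped. The interaction for intervene against model was 1.28 ± 0.44 (adjusted p = 0.162). Without model replicate 4 or 5 or intervene replicate 5, the adjusted p of the difference from model was 0.0900, 0.0589 and 0.0713, and by limma on FPKM it was 0.0516. Adamts6, which acts in the microfibril network, was at 1.01, 1.13 and 1.30 CPM in model replicates 4 to 6 and at 2.43, 2.08 and 2.39 CPM in intervene replicates 4 to 6. That difference of 1.01 ± 0.26 (adjusted p = 0.0343) lost its call in all 6 fits that left out 1 library, with adjusted p from 0.0612 to 0.134. In control, Adamts6 was at 3.02, 4.28 and 2.88 CPM in replicates 1 to 3 and at 1.63, 1.01 and 1.53 CPM in replicates 4 to 6. Its change against control differed between the sets (interaction 1.13 ± 0.36, edgeR adjusted p = 0.0398), being -0.38 in replicates 1 to 3 and 0.74 (adjusted p = 0.0447) in replicates 4 to 6. The latter call was lost in all 6 fits that left out 1 library (adjusted p from 0.0537 to 0.199), with library totals, without a filter and by limma. The interaction call was lost without control replicate 2 or 5 or intervene replicate 1, 4, 5 or 6 (adjusted p from 0.0536 to 0.109).

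Adamts4, the main aggrecanase of this list by level and a gene also known from oligodendrocytes, separated by replicate set more than by group. It was at 44.2, 41.6 and 43.3 CPM in control replicates 1 to 3 and at 20.1, 18.8 and 22.6 CPM in control replicates 4 to 6. Model libraries held 49.5, 51.8 and 40.6 CPM in replicates 1 to 3 and 16.7, 29.9 and 29.4 CPM in replicates 4 to 6, and intervene libraries 61.1, 49.8 and 55.3 CPM and 33.7, 33.5 and 27.8 CPM. In each group every library of replicates 4 to 6 lay below every library of replicates 1 to 3. Over whole groups its log2 fold change was 0.19 ± 0.29 in model against control, 0.26 ± 0.29 in intervene against model and 0.45 ± 0.29 in intervene against control (edgeR adjusted p = 1.00, 0.988 and 0.665). Within replicates 4 to 6 it was higher in intervene than in control by 0.63 ± 0.17 (adjusted p = 0.0125), and the adjusted p was 0.0594 without control replicate 5. Across the groups of replicates 4 to 6, the summed level of 7 oligodendrocyte markers (Mbp, Mog, Mag, Mobp, Cldn11, Ermn and Opalin) moved with it. It was at 5001 to 5758 CPM in control, 6438 to 9505 in model and 11360 to 12620 in intervene. Between the sets of intervene, where Adamts4 did not overlap, this sum did, at 11570 to 16000 CPM in replicates 1 to 3. There 2 of 7 markers were lower in replicates 4 to 6. Of these markers 6 of 7 were higher in intervene than in control replicates 4 to 6, and none was at 0. Their part in the Adamts4 result was not tested.

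Adamts13, which cuts von Willebrand factor, had the widest differences and few counts. Its counts were 21, 1 and 2 in control replicates 1 to 3 and 64, 121 and 38 in control replicates 4 to 6. In model they were 28, 4 and 18, then 67, 55 and 35, and in intervene 4, 12 and 18, then 14, 15 and 22. Its mean ± SD rose from 0.0914 ± 0.073 to 1.80 ± 0.470 CPM between the sets of control and from 0.508 ± 0.364 to 1.57 ± 0.326 CPM in model. In intervene it was 0.363 ± 0.209 and 0.576 ± 0.153 CPM, a difference that was not called (n = 3 each). The fitted log2 difference of the intervene-against-control change between sets was -3.33 ± 0.83 (edgeR adjusted p = 0.0125), a value that rests on control libraries with 1 and 2 counts and is no bound on the fold. Within replicates 4 to 6 Adamts13 was lower in intervene than in control by -1.65 (adjusted p = 0.0313), a call lost without control replicate 4 or 5 or intervene replicate 4 or 5 (adjusted p up to 0.0985).

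Mmp14, the membrane-type collagenase that activates Mmp2 and the founding member of its class, differed between intervene and model in replicates 4 to 6. It was at 9.04, 9.75 and 9.83 CPM in control replicates 4 to 6, at 8.96, 11.3 and 9.45 CPM in model and at 19.1, 16.5 and 16.3 CPM in intervene. The intervene libraries did not overlap the others in that set. Mmp14 rose 1.75-fold against model (log2 0.81 ± 0.14, edgeR adjusted p = 0.00604) and 1.82-fold against control (0.86 ± 0.14, adjusted p = 0.000574). The call against model held in all 8 alternative fits run on it and in all 6 fits that left out 1 library (adjusted p up to 0.0434). In replicates 1 to 3 Mmp14 was at 14.0, 18.4 and 20.2 CPM in control, 18.01, 22.7 and 21.98 in model and 23.1, 27.8 and 24.3 in intervene. The intervene libraries again lay above the others, with a log2 fold change of 0.26 ± 0.14 against model (adjusted p = 1.00) and 0.52 ± 0.14 against control (adjusted p = 0.323). The interaction for intervene against model was 0.55 ± 0.20 (adjusted p = 0.174). In control, Mmp14 was lower in replicates 4 to 6 than in 1 to 3 by -0.87 ± 0.14 (adjusted p = 0.000229). Its mean ± SD was 17.3 ± 1.57 CPM in intervene replicates 4 to 6 and 17.5 ± 3.16 CPM in control replicates 1 to 3 (n = 3 each).

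Mmp15, another membrane-type enzyme, was at 11.1, 12.2 and 10.96 CPM in control replicates 4 to 6 and at 17.5, 24.2 and 17.7 CPM in intervene replicates 4 to 6. It was higher there by 0.80 ± 0.15 (edgeR adjusted p = 0.00155), was at 23.9 to 28.8 CPM in control replicates 1 to 3, and its change differed between sets (interaction 0.83 ± 0.21, adjusted p = 0.0145; 0.0560 by limma on FPKM). Model replicates 4 to 6 lay between, at 14.7, 17.3 and 13.2 CPM. Mmp17, a lipid-anchored membrane-type enzyme, went the other way: 227, 223 and 203 CPM in control replicates 4 to 6 and 102, 110 and 132 CPM in intervene, a log2 difference of -0.92 (adjusted p = 0.0382). That call was lost in all 6 fits that left out 1 library (adjusted p from 0.0514 to 0.106) and in the fit without a filter (0.0953). It ranged from 48.4 to 134 CPM in control replicates 1 to 3. The gelatinase Mmp2 had medians of 1.91, 2.29 and 2.66 CPM in control, model and intervene, and the gelatinase Mmp9 medians of 1.42, 1.34 and 1.86 CPM. Neither was called in a comparison between groups: in intervene against model replicates 4 to 6 the log2 fold change was 0.51 ± 0.26 for Mmp2 (adjusted p = 0.241) and 0.82 ± 0.36 for Mmp9 (adjusted p = 0.180). Mmp19, named because its log2 fold change of 1.89 ± 0.57 there was close to that of Timp1, had an adjusted p of 0.0614 and at most 32 counts in a library.

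**Figure D3:**
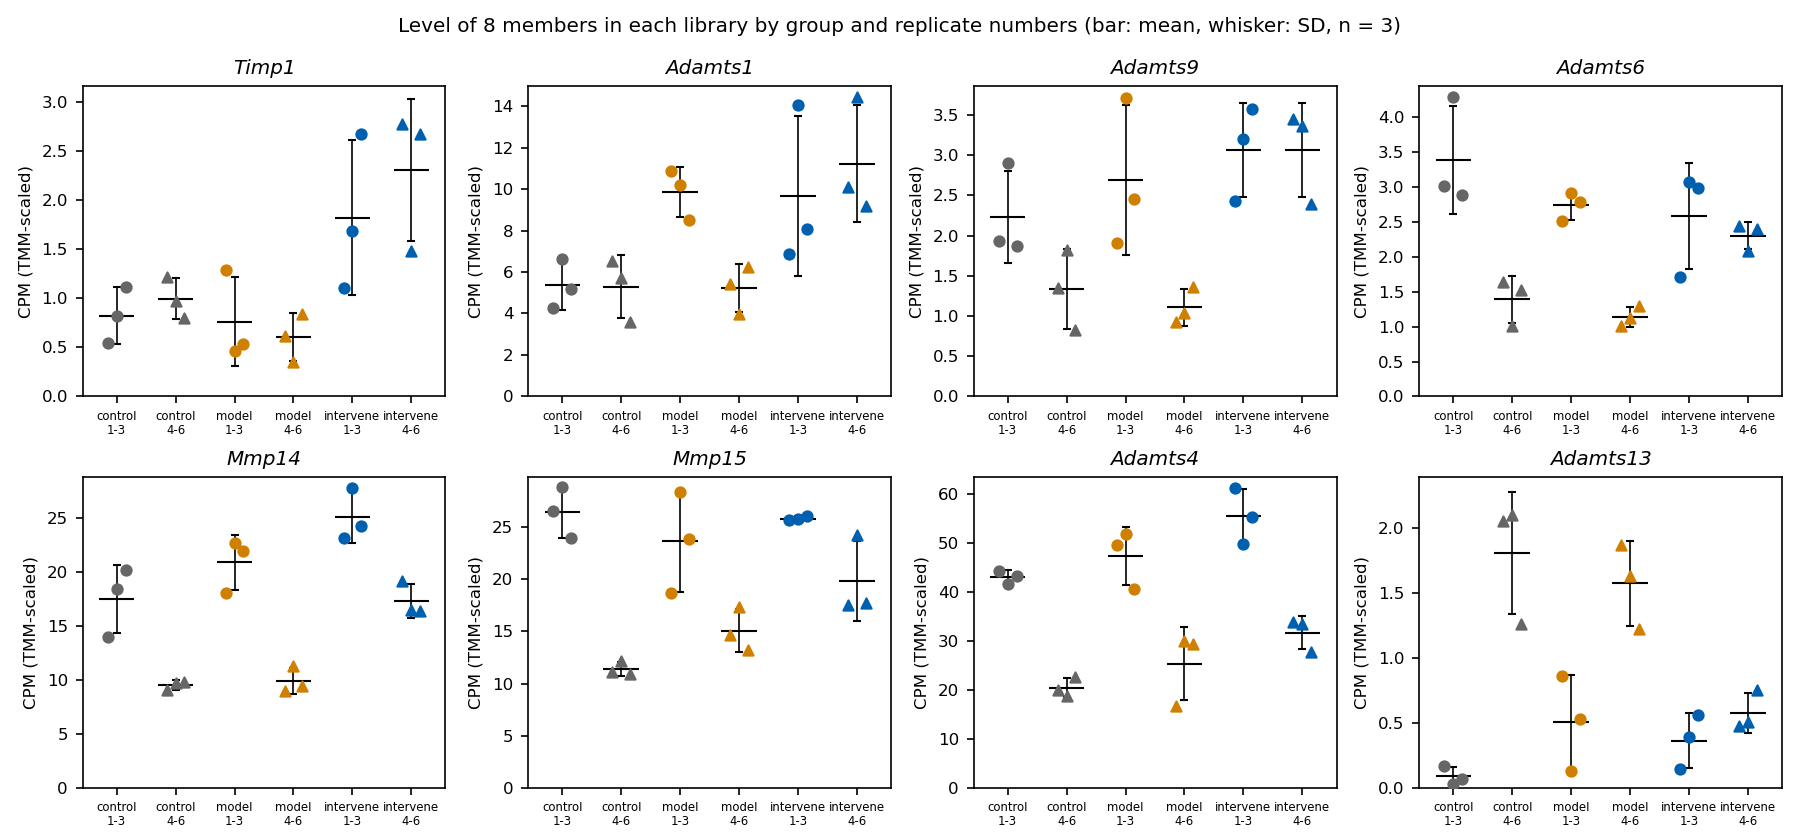
Level in CPM of 8 members in each of the 18 libraries, by group and replicate set (line: mean, whisker: SD, n = 3). Timp1, Adamts1, Adamts9, Adamts6 and Mmp14 are higher in intervene than in model replicates 4 to 6, while Adamts4 and Mmp15 are lower in replicates 4 to 6 than in 1 to 3 of control.

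More members were called between the replicate sets of control and of model than between groups. In control, 17 of 31 members differed between replicates 4 to 6 and 1 to 3 (3 higher, 14 lower), 54.8% beside 38.2% of all genes. In model it was 14 (2 higher, 12 lower), 45.2% beside 18.7%, and in intervene 6, all lower, 19.4% beside 14.9%. The 6 members of lowest p in control were Mmp15 (-1.21 ± 0.15, edgeR adjusted p = 3.8e-05), Adamts13 (3.98 ± 0.61, adjusted p = 0.000151), Adamts4 (-1.07 ± 0.17, adjusted p = 0.000199), Mmp14, Timp3 and Adamts6 (-1.30 ± 0.26, adjusted p = 0.00105). Also lower were Timp2, Timp4, Adamts10, Adamts15, Adamts16, Adamts19, Adamts20, Mmp2 and Mmp23, with log2 differences from -2.47 (Adamts19, with a control library at 0 counts, so no bound on the fold) to -0.73 (Mmp2). Mmp17 (1.32) and Mmp24 (0.46) were higher. In model, Mmp14 (-1.08 ± 0.14, adjusted p = 0.0004), Adamts4 (-0.90 ± 0.17, adjusted p = 0.00285), Adamts6 (-1.26 ± 0.26, adjusted p = 0.00528), Adamts20 (-1.26 ± 0.26, adjusted p = 0.00535), Mmp15 (-0.65 ± 0.15, adjusted p = 0.00933) and Timp3 (-0.54 ± 0.13, adjusted p = 0.00971) led, followed by Adamts9, Adamts16, Mmp2, Adamts1, Timp2 and Mmp11. Adamts3, which processes procollagen, and Adamts13 were higher. Without model replicate 2 the count in model fell to 4, without replicate 3 to 9 and without replicate 4 to 7. In intervene, Adamts10 had the lowest log2 difference of the called members (-1.44 ± 0.25, adjusted p = 0.0033), and Adamts19, at -1.92 ± 0.75, was not called (adjusted p = 0.0912). Also lower were Adamts4 (-0.81 ± 0.17, adjusted p = 0.00687), Mmp14 (-0.53 ± 0.14, adjusted p = 0.0188), Adamts16 (-0.88 ± 0.28, adjusted p = 0.0426), Mmp2 (-0.79 ± 0.25, adjusted p = 0.0447) and Adamts20 (-0.80 ± 0.26, adjusted p = 0.04998). Leaving out intervene replicate 2 or 6 gave 2 members in intervene, and leaving out replicate 3 or 5 gave 3. Of the 6, Adamts10 and Adamts4 kept their calls in all 6 of these fits. Mmp14 kept its call in 3 (lost without replicate 2, 5 or 6), Mmp2 and Adamts20 in 1 each (without replicate 1), and Adamts16 in 0. In control the calls of Adamts20, Mmp2, Adamts10, Adamts15, Mmp24 and Adamts19 were lost in 5, 4, 2, 2, 2 and 1 of 6 such fits. In model Mmp14, Adamts4, Adamts6 and Adamts20 kept theirs in all 6, Mmp15 and Timp3 in 5, and Adamts9 and Adamts16 in 4. There Adamts1, Adamts3, Mmp2, Mmp11 and Timp2 kept theirs in 2 each, and Adamts13 kept its in 1. Markers moved with these differences: in control, 6 of 8 thalamic neuron markers and 6 of 7 oligodendrocyte markers were lower in replicates 4 to 6, and 5 of 8 cortical and hippocampal neuron markers were higher. All 5 ependymal and 3 of 5 erythroid markers were also lower there. So were 3 of 8 reactive astrocyte markers, a share near the 38.2% of all genes. Of 6 pericyte and smooth muscle markers that passed the filter, 3 were higher. In model, 5 of 8 thalamic, 6 of 7 oligodendrocyte, 5 of 6 choroid plexus, 5 of 7 fibroblast and meningeal and 5 of 5 erythroid markers were lower. In intervene, 6 of 7 fibroblast and meningeal and 5 of 6 endothelial markers were lower. Going the other way there, 3 of 6 general astrocyte markers and 2 of the 2 neutrophil markers that passed the filter were higher. The summed fibroblast and meningeal markers were at 83.0 to 154 CPM in intervene replicates 4 to 6 and at 251 to 390 CPM in 1 to 3. The part of these markers in the members' differences was not tested. Timp1 was not called between the sets in any group (0.31 ± 0.45 in control, -0.35 ± 0.47 in model, 0.34 ± 0.43 in intervene; adjusted p = 0.615, 0.636 and 0.636).

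Besides Timp2 and Mmp2, 9 members were called between sets and in no comparison of groups. Adamts10, which acts on fibrillin microfibrils, was at 4.32 to 7.82 CPM in control replicates 4 to 6 and at 7.20 to 15.4 CPM in 1 to 3. In intervene it was at 3.83 to 4.03 and at 9.51 to 12.1 CPM, with no overlap between the sets, while in control the sets overlapped. Its call in control was lost without control replicate 2 or 5 (adjusted p = 0.198 and 0.110). Adamts20, which takes part in pigment cell migration, was at 4.93 to 7.08 and 9.66 to 9.97 CPM in the same sets of control, and at 4.41 to 6.90 and 11.6 to 18.7 CPM in model. Adamts15, a versican-cutting enzyme, was at 1.53 to 2.05 CPM in control replicates 4 to 6 and at 2.71 to 4.03 CPM in 1 to 3. Both genes showed no overlap between those sets. Adamts16 was at 1.09 to 1.23 and 2.38 to 2.84 CPM in control, Adamts19 at 0 to 0.382 and 0.784 to 1.08 CPM, and Mmp23 at 0.598 to 0.763 and 1.34 to 3.38 CPM. Mmp24, a membrane-type enzyme of the nervous system, went the other way, from 11.97 to 13.8 CPM in control replicates 1 to 3 to 16.5 to 20.1 CPM in 4 to 6. In model, Mmp11 (stromelysin-3) was at 0.711 to 1.19 CPM in replicates 4 to 6 and at 1.53 to 1.84 CPM in 1 to 3, and Adamts3 at 12.03 to 19.9 and 5.598 to 10.5 CPM. Both calls were kept in only 2 of 6 fits that left out 1 library.

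**Figure D4:**
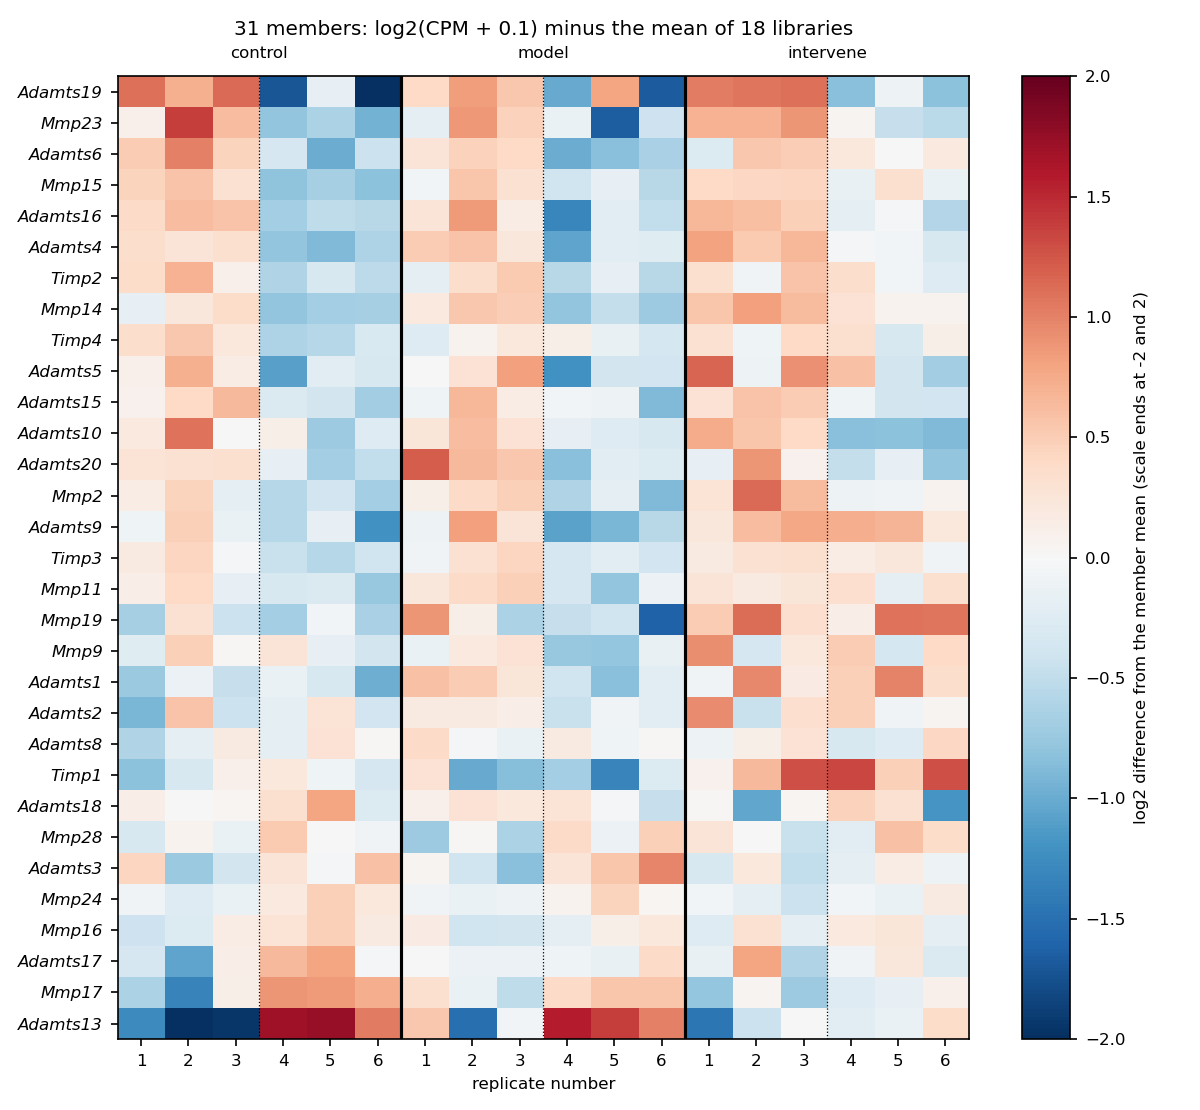
Level of each member in each library as log2(CPM + 0.1) minus its mean over the 18 libraries, with a dotted line between replicates 3 and 4 of each group. Rows are ordered by the log2 difference between the replicate sets of control. Most rows from Adamts19 to Timp3 thus change colour at the dotted line of control. Timp1 and Adamts1 reach their highest values in intervene libraries.

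Other cell and tissue markers moved with the comparisons of replicates 4 to 6 in which members were called. In intervene against model, of 8 reactive astrocyte markers 7 were higher and none lower, and their summed level was 598 to 889 CPM in intervene beside 229 to 314 CPM in model. Gfap, the intermediate filament of astrocytes, was 1.51 ± 0.26 higher on the log2 scale (edgeR adjusted p = 0.00604). Of 6 general astrocyte markers 2 were higher (Aqp4 and Gja1), and 0 of 5 ependymal markers were called (71.0 to 121 beside 26.4 to 43.6 CPM). Of 8 thalamic neuron markers 5 were higher, with summed levels of 1017 to 1190 beside 926 to 972 CPM, and of 7 oligodendrocyte markers 3 were higher. The summed cortical and hippocampal markers were at 808 to 1477 CPM in intervene beside 1529 to 1735 CPM in model, with 0 of 8 called. Choroid plexus markers spread from 111 to 4034 CPM in intervene and from 48.9 to 100.3 CPM in model, with 0 of 6 called. Of 5 erythroid markers 2 were higher (268.6 to 411 beside 142 to 185 CPM). Markers of microglia and macrophages (0 of 7 called), endothelium (0 of 6), pericytes and smooth muscle (0 of 6 that passed) and fibroblasts (0 of 7) did not pass the test. In intervene against control replicates 4 to 6, 7 of 8 reactive astrocyte, 6 of 8 thalamic neuron, 6 of 7 oligodendrocyte, 5 of 6 choroid plexus, 5 of 5 ependymal, 4 of 5 erythroid and 3 of 6 general astrocyte markers were higher, and 1 of 8 cortical and hippocampal markers was lower. Summed choroid plexus markers were at 2.18 to 4.16 CPM in those control libraries and ependymal markers at 9.23 to 16.1 CPM. The part of these markers in the members' results was not tested.

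Genes that act with these proteases were read from lists in the same comparison, intervene against model replicates 4 to 6, where 5.71% of all genes were called. In the plasminogen activator system, whose product plasmin activates several MMPs, 1 of 6 genes read was higher and 1 lower. Serpinf2, the plasmin inhibitor, stood at a mean of 2.16 CPM beside 0.108 CPM in model (log2 4.34 ± 0.85, edgeR adjusted p = 0.0106). That model mean was near the level of 3 counts (0.0838 to 0.105 CPM in those libraries), so the value is no bound on the fold. Neuroserpin, Serpini1, fell by 0.91 on the log2 scale (adjusted p = 0.0315). Among 10 inhibitors and clearance factors outside the TIMPs, 2 were higher: A2m, a broad protease trap, by 2.58 ± 0.28 (adjusted p = 0.000348) and Thbs1, which carries the repeat that names the ADAMTS family, by 1.56 ± 0.32 (adjusted p = 0.0134). Of 16 cytokine and AP-1 genes 12 were measured and 5 were higher, among them Il1b (3.58 ± 0.75, adjusted p = 0.0149), Socs3 (1.55 ± 0.27, adjusted p = 0.00556) and Stat3 (0.50 ± 0.11, adjusted p = 0.0150). A list of 10 hyalectan matrix genes held the proteoglycans Acan, Bcan, Ncan and Vcan, which several ADAMTS proteases cut, with link proteins and tenascins. Of these, the link protein gene Hapln2 (0.58 ± 0.16, adjusted p = 0.0382) and the tenascin gene Tnc (0.97 ± 0.27, adjusted p = 0.0463) were higher. None of the proteoglycan genes was called. None of 15 basement membrane genes was called, Adamtsl4 alone of 7 ADAMTS-like genes was higher (0.77 ± 0.19, adjusted p = 0.0268), and of 10 ADAM proteases Adam22 and Adam23 were lower (-0.35 ± 0.09 and -0.50 ± 0.14, adjusted p = 0.0317 and 0.0391). In the comparisons of whole groups 0 genes of these lists were called.

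The start regions of 4 of the members called in intervene against model replicates 4 to 6 are shown because these genes moved in the same comparison. Each is the 250 bases before the gene's start in RefSeq on GRCm38.p6, given 5′ to 3′ on the gene's strand, with motif matches in capitals. Timp1 is at chrX:20869916-20870165 (plus strand), Adamts1 at chr16:85803114-85803363 (minus strand), Mmp14 at chr14:54431348-54431597 (plus strand) and Adamts9 at chr6:92943535-92943784 (minus strand). The set held no entry for Adamts6.
Timp1: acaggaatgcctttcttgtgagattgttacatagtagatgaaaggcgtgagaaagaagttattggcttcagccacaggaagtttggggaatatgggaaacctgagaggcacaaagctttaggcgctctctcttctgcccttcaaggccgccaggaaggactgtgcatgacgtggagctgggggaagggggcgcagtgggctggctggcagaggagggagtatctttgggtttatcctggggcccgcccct
Adamts1: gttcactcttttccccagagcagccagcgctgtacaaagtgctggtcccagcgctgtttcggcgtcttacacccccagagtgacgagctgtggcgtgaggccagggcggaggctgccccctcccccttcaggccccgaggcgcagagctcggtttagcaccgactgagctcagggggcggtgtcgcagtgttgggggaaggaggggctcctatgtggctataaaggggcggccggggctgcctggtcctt
Mmp14: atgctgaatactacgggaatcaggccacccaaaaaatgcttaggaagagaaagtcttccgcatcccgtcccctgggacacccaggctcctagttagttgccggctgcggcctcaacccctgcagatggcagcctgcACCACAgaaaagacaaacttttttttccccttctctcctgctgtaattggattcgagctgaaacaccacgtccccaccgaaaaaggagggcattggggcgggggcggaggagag
Adamts9: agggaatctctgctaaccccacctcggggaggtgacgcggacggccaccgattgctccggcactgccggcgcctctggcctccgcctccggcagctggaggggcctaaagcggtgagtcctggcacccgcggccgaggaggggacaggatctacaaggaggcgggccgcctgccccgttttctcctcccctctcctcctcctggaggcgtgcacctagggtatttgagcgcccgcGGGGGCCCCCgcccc
Both strands were searched for AP-1 (TGAGTCA), STAT (TTCNNNGAA), RUNX (TGTGGT) and the NF-kB motif. The search gave a RUNX match in Mmp14 and an NF-kB match in Adamts9, and no match in Timp1 or Adamts1. Of 32841 promoters of that length, 4.46% held the AP-1 letters, 7.02% STAT, 7.25% NF-kB and 14% RUNX. Of the 18 members that passed the filter and had an entry, 0 held the AP-1 letters, 1 STAT (Mmp23), 2 NF-kB (Adamts9 and Adamts20) and 2 RUNX (Mmp14 and Mmp23). A match is a description of the letters and not a bound site.

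The 15 members below the filter had at most 28 counts in any library, and Mmp1a, Mmp1b, Mmp7, Mmp10 and Mmp20 had 0 in all 18. A count of 0 allows up to 3 counts, which is 0.0246 to 0.108 CPM depending on the library (counting error only). This takes each count as independent, and the limit would be higher where both ends of a fragment are counted. The others were Adamts7, Adamts12, Adamts14, Mmp3, Mmp8, Mmp12, Mmp13, Mmp21, Mmp25 and Mmp27. Of the 15, 10 stand side by side on mouse chromosome 9 in RefSeq's gene order, a cluster that holds the collagenases, stromelysins and matrilysin: Mmp13, Mmp12, Mmp1b, Mmp3, Mmp1a, Mmp10, Mmp8, Mmp27, Mmp20 and Mmp7. None of these 10 neighbours passed.

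Mmp3, stromelysin-1, which cuts many matrix proteins and activates other MMPs, was counted almost only in the intervene libraries. Its counts were 0, 0 and 2 in control replicates 1 to 3 and 0, 2 and 0 in replicates 4 to 6, and in model 2, 0 and 0, then 2, 0 and 0. The intervene libraries held 2, 4 and 16 counts in replicates 1 to 3 and 14, 10 and 16 in replicates 4 to 6. Intervene replicate 1 overlapped the other groups and the 5 others lay above them. In an edgeR fit without the filter, Mmp3 was called in intervene against control replicates 4 to 6 (adjusted p = 0.0208) and not in intervene against model replicates 4 to 6 (adjusted p = 0.0848) or over whole groups (adjusted p = 0.339 against control and 0.694 against model). No fold is given against groups with 2 counts. That fit took the counts as deposited, and members below the filter were not run with halved counts. Adamts12 had 23, 20 and 12 counts in control replicates 1 to 3 and 2 in each of control replicates 4 to 6, and that fit called it between these sets (adjusted p = 0.0194). Mmp3 and Adamts12 were the 2 low members it called in any comparison. Mmp8, the neutrophil collagenase, had 8, 18 and 4 counts in intervene replicates 4 to 6 and at most 6 in every other library. The summed neutrophil markers S100a8, S100a9, Ngp, Camp, Ly6g and Retnlg were at 3.90 to 9.03 CPM in those 3 libraries beside 0.829 to 1.40 CPM in model replicates 4 to 6. The sum was at 0.769 to 3.54 CPM in control replicates 4 to 6 and at 0.597 to 3.31 CPM in model replicates 1 to 3, close to the lowest of those 3 libraries. Against model replicates 4 to 6, S100a9 was higher (2.67 ± 0.69, edgeR adjusted p = 0.0331), and S100a8, at 2.37 ± 0.70, was not called (adjusted p = 0.0563). Ngp and Camp, granule genes of immature neutrophils, were at 0 to 0.0676 CPM and at 0 in the 3 intervene libraries. They were at most 0.382 and 0.184 CPM in any of the 18 libraries, so they cannot show a difference between groups. Mmp12, the macrophage elastase, reached 20 or more counts in single libraries of each group: control replicate 1 (26), model replicate 1 (20) and intervene replicates 2 and 5 (22 and 24). Control replicate 1 was the deepest library, with 118461420 counts. Scaled for library size, these values were 0.213 CPM in control, 0.614 CPM in model, and 0.712 and 0.805 CPM in intervene.

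**Figure D5:**
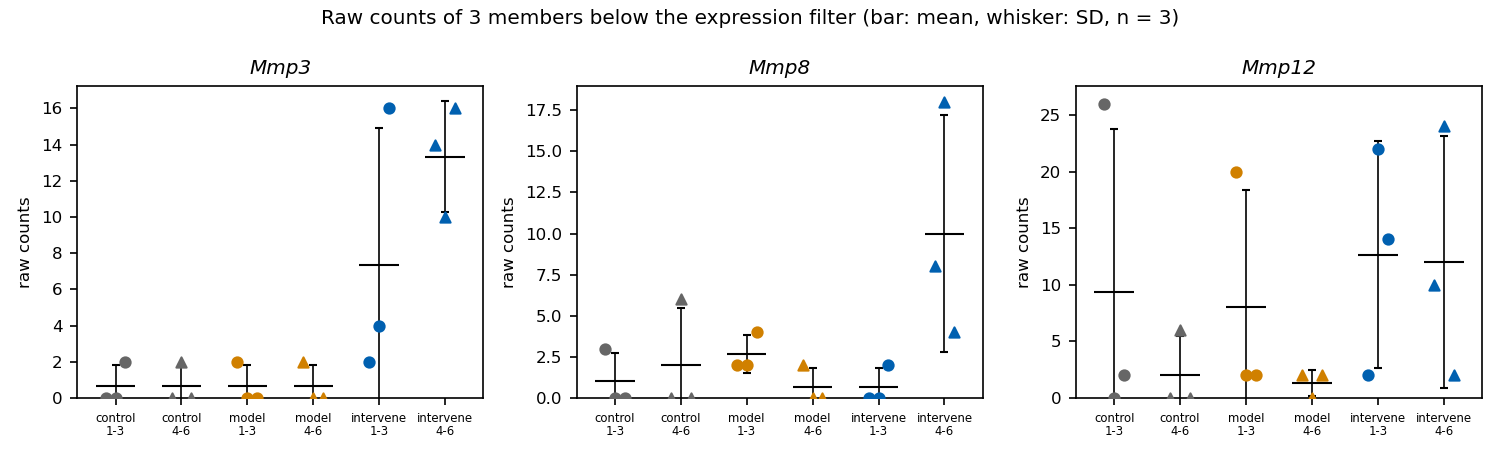
Raw counts of Mmp3, Mmp8 and Mmp12 in each library by group and replicate set (line: mean, whisker: SD, n = 3). Counts are not scaled for depth, and control replicate 1 is the deepest library. Mmp3 is at 0 to 2 counts in all control and model libraries and at 2 to 16 in intervene libraries; Mmp8 reaches 18 in intervene replicates 4 to 6.

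The start regions of the chromosome 9 neighbours are shown for the AP-1 letters they hold. All 10 had an entry, and 7 of them held the AP-1 letters within the 250 bases before a start, beside 0 of the 22 other members with an entry and 4.46% of all promoters. The matches began 35 to 93 bases before the start. They are shown with 20 bases on each side, 5′ to 3′ on the gene's strand, with the AP-1 match (or its reverse complement, in Mmp13) in capitals. Mmp12 and Mmp7 each have a second start in the set, which held no AP-1 match.
Mmp10 (chr9:7502259-7502305, plus strand): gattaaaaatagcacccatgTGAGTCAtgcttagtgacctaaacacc
Mmp12 (chr9:7347310-7347356, plus strand): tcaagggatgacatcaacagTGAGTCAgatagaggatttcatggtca
Mmp13 (chr9:7272459-7272505, plus strand): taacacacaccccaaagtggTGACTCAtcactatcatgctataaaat
Mmp1a (chr9:7464048-7464094, plus strand): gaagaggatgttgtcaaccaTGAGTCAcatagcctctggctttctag
Mmp1b (chr9:7388093-7388139, minus strand): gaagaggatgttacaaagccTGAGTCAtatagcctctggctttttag
Mmp3 (chr9:7445756-7445802, plus strand): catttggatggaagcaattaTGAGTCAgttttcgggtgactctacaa
Mmp7 (chr9:7692007-7692053, plus strand): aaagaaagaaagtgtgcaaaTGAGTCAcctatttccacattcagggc
Of these 7 genes, Mmp1a, Mmp1b, Mmp7 and Mmp10 were at 0 in every library, Mmp13 had 30 counts in all, Mmp12 had 136 and Mmp3 had 70. The genes share their place and origin in 1 gene cluster, so they are not independent cases. No match in a window says only that these letters are not there.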

How the data were processed

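Poly-A RNA was sequenced from 18 libraries, 6 per group. HISAT2, featureCounts and GRCm39 are named, per the submitters' processing notes. Their versions, the annotation, and the strand and read-pair settings are not stated there. The authors deposited raw counts per gene symbol and FPKM. Each deposited FPKM is its count over one length per gene and the library total (18117 of 18117 genes counted in every library, tolerance 1e-06). Of counts from 1 to 10, 83.3% are even, as happens where both ends of a fragment are counted, so a set of counts halved and rounded up was added as an alternative after seeing the data. The floor of 3 counts covers counting error only and takes each count as independent. It is too low where both ends of a fragment are counted. The ± given with a log2 fold change is a standard error, the size of the change over the square root of the test's F value. It includes the spread between libraries.

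The main test was that of edgeR 4.0.16 under R 4.3.3 (quasi-likelihood F test, robust, trimmed-mean scaling, filterByExpr with a minimum count of 10, Benjamini-Hochberg adjusted p under 0.05 over 18452 genes). Whole groups were compared in a fit of 3 groups. Replicate sets were compared in a fit of 6 cells of 3 libraries each. Printed CPM carry no prior count, and the log CPM behind the pairing check used a prior count of 2. The step was tested on simulated data with known changes: for intervene against model (18452 genes) 69% of 2-fold and 95% of 4-fold changes were recovered, and within replicates 4 to 6 76% and 98%. Of the simulated calls, 0% were false for whole groups and 6.45% within replicates 4 to 6. Changes were placed only in genes with a mean of at least 1 CPM. The simulated spread was the trend over all genes in the fit of 6 cells, not each gene's own. These shares thus do not cover lower members or genes with a wider spread. Alternatives were DESeq2 1.42.0, limma 3.58.1 on log2(FPKM + 1), RLE factors, library totals, no filter, a replicate block, the replicate set as covariate, fits on only the libraries compared, and each library left out. The added 1 shrinks the limma fold of members below 1 FPKM. In intervene against model replicates 4 to 6 limma gave 0.133 for Adamts9 and 0.0818 for Adamts6. Its part in the calls lost by limma was not tested.

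The members and gene lists, and the splitting into replicate sets, were chosen with earlier results of these data known. Named with values were Timp1 to Timp4, Adamts1, Adamts4, Adamts9, Mmp2, Mmp3, Mmp9, Mmp12, Mmp14 and every member called; by the rule, fold changes are given for the called members of lowest p (at most 6 a comparison) and for Timp1, Adamts1 and Adamts4. Fold changes of other members, Mmp9 and Mmp2 among them, were added after their values were seen. Of the genes in the other lists, 2 are not reported here and enter no count or sum over a list. Mmp8, Mmp19 and the host genes Syn1 to Syn3 were chosen after their values were seen. Replicate numbers are shared between groups. Model and control libraries of the same number deviated together (correlation 0.185 to 0.631, over 0.1 in 6 of 6), but after subtracting the means of the replicate sets the range was -0.177 to 0.237. The pairing comes from these data and not from the labels. Start regions were taken from RefSeq on GRCm38.p6, where 32 members, 18 of them past the filter, had an entry. The files use GRCm39, and no coordinate was converted.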

Additional observations from a re-analysis of the deposited data

Results flagged for a closer look

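Of 69 groups of 6 libraries examined for 23 named members, 3 held a library far from the others, and chance gives about 1 in 20. Adamts10 was at 15.41 CPM in control replicate 2, where the nearest library held 8.19 CPM. Mmp11 was at 1.141 CPM in intervene replicate 5 (nearest 1.49 CPM), and Mmp24 at 19.67 CPM in model replicate 5 (nearest 15.13 CPM).

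The change of intervene against control differed between the replicate sets for 3 members, as a log2 interaction of 1.126 for Adamts6, 0.8287 for Mmp15 and -3.335 for Adamts13. The protease trap A2m differed between the sets in intervene against model (2.199) and in intervene against control (2.464). Both A2m values use the same intervene libraries.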

How the results depend on the processing

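The counts of called members moved by over 1.5 times in these cases, and the cause was not tested. The share of all genes called in each of these fits is not given beside the counts. They are thus not read as particular to the members. DESeq2 called 1 member in intervene against model (Timp1), 2 in intervene against control (Timp1 and Adamts1) and 5 in the change of the latter between sets, where limma on FPKM called 1. With the replicate set as covariate, 1 member (Mmp14) was called in intervene against control. In intervene against model replicates 4 to 6, library totals and limma gave 3 each, and the fit on those libraries alone gave 9 (7 higher, 2 lower). Between the sets of intervene, no filter gave 3. With each library left out in turn, the counts ran from 1 to 4 in intervene against model replicates 4 to 6 and from 6 to 8 in intervene against control replicates 4 to 6. They ran from 13 to 18 between the control sets, 4 to 14 between the model sets, 2 to 5 between the intervene sets, 0 to 1 in the change of intervene against model and 2 to 6 in that of intervene against control, and stayed at 0 elsewhere. The 55 log2 values of called members kept their sign in every fit run on them. RLE factors and DESeq2 ended 0 of these 55 calls, halved counts 1, library totals 8, no filter 11 and limma 13. Leaving out 1 library ended a call in 111 of 348 values. Of 9 whole-group values of Timp1, Adamts1 and Adamts4 that were not called, DESeq2 called 3.

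With the replicate number as a block, 0 members were called in whole groups, within replicates 1 to 3 and in model against control replicates 4 to 6. The block gave 5 in intervene against model replicates 4 to 6, 9 in intervene against control replicates 4 to 6, and 0, 0 and 3 in the changes between sets. Of 18 called values it was run on, it ended 1, Mmp17 in intervene against control replicates 4 to 6 (adjusted p = 0.0928). Same-numbered libraries correlated at -0.127 to 0.351 in intervene and model (5 of 6 over 0.1) and at -0.143 to 0.376 in intervene and control (3 of 6), so those groups share only a number. Of 12 libraries, 3 and 4 correlated best with their own number in these pairs of groups, and 4 in model and control. Members with few counts (Adamts13, Adamts19, Mmp3, Mmp8) are limited by depth.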
